A study of Oryza sativa with 6 samples.

Results

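In roots of rice that overexpressed OsMYB305, 117 loci followed the level of the transgene. Their transcripts were lowest in the wild type (WT), higher in the overexpressing line OE20 and higher again in the line OE15, in the same order as OsMYB305 itself. These loci were chosen by their values in these 6 libraries. A locus had to have a mean of at least 2 FPKM (fragments per kilobase of transcript and per unit of mapped fragments, a level already divided by transcript length). Both of its OE15 values had to lie above both OE20 values, and both OE20 values above both WT values. The ratio of genotype means had to reach 1.25 for OE15/OE20 and for OE20/WT, after 0.1 FPKM was added to each mean. OsMYB305 (LOC_Os01g45090) and LOC_Os09g35010 met these limits and were set aside. The 117 loci were 0.639% of the 18300 loci whose mean reached 2 FPKM, out of 55982 loci in all. Because every genotype contrast served to choose them, their order and their ratios are a description, and nothing is read from a test on them.

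RNA was sequenced from roots of 14-day-old seedlings under low N (0.288 mM NH4NO3), with 2 libraries for each of 3 genotypes. OE15 and OE20 are transgenic lines in which the CaMV 35S promoter drives the OsMYB305 coding sequence, so the transgene is expected in most root cells, and the WT is the parental cultivar Zhonghua 11 (ZH11). Each level of OsMYB305 was represented by 1 line. The level of OsMYB305 therefore cannot be told apart from anything else that distinguishes OE15 from OE20, such as the site of the transgene.

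R2R3-MYB proteins are the largest MYB group in plants, and many of them bind promoters of target genes and activate or repress transcription. They are known for their part in phenylpropanoid and cell wall synthesis, hormone responses and stress responses. A gene that follows the dose of an overexpressed factor can be a direct target or lie further downstream, and transcript levels alone do not separate these.

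OsMYB305 had 150.2 and 148.3 FPKM in OE15, 81.3 and 80.2 FPKM in OE20, and 0.0388 and 0.0576 FPKM in WT. The OE15 level was thus 1.85 times the OE20 level, and both lines were far above WT. The other locus set aside, LOC_Os09g35010, belongs by its annotation to the dehydration-responsive element-binding proteins and had 6.97 and 7.39 FPKM in OE15, 4.68 and 4.65 FPKM in OE20, and 0.706 and 0.426 FPKM in WT.

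Relative depth was highest in WT replicate 2, at 1.36, and near 1 in the other libraries. It was 1.01 and 1.05 in OE15, 1.08 and 0.985 in OE20, and 1 and 1.36 in WT, where WT replicate 1 was set to 1. Without WT replicate 2, 164 loci met the limits in place of 117. Absolute depth is unknown, since FPKM holds no read totals. Genes that mark cells with secondary walls were lower in both lines. The summed level of OsCESA4, OsCESA7, OsCESA9 (cellulose synthases of the secondary wall) and OsBC1 (a COBRA-like protein of cellulose assembly) was 136.9 and 136.0 FPKM in OE15, 160.1 and 160.2 FPKM in OE20, and 237.9 and 252.8 FPKM in WT. All 4 were lower in both lines than in WT without overlap, as were 2742 (15%) of the 18300 loci at 2 FPKM. All 4 also had a lower mean in OE15 than in OE20. Both conditions together were met by 1713 (9.36%) of the 18300 loci. None of the 4 genes was at 0. Of 11 cell wall genes the study lists, these 4 included, 11 were lower in both lines without overlap and 9 had a lower mean in OE15 than in OE20. The exceptions were OsLAC10 (a laccase), with means of 4.80 FPKM in OE15 and 4.42 FPKM in OE20, and OsCCoAOMT (a lignin methyltransferase), with 22.5 FPKM in OE15 and 20.3 FPKM in OE20. OsMYB48, which the paper calls a positive regulator of secondary wall synthesis, went the other way. It was higher in both lines without overlap, with means of 370 FPKM in OE15, 300 FPKM in OE20 and 221 FPKM in WT. The study chose the 11 cell wall genes on the same libraries. Their part in the levels of the 117 loci was not tested. In whole roots, fewer cells of a type and less RNA per cell cannot be told apart. The nitrate uptake genes OsNRT2.1, OsNRT2.2 and OsNAR2.1 summed to 149.3 and 145.3 FPKM in OE15, 146.4 and 144.2 FPKM in OE20, and 100.2 and 106.4 FPKM in WT, with none at 0. The paper reports these genes as up-regulated in overexpressing roots, so their sum cannot be read as an amount of tissue. Most of the sum was OsNAR2.1, with means of 124 FPKM in OE15, 126 FPKM in OE20 and 88.8 FPKM in WT. OsNRT2.1 and OsNRT2.2 were higher in OE15 than in OE20 without overlap.

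The same limits were applied to the other orders of the 3 genotypes. There were 95 loci with the mirrored order, OE15 below OE20 below WT, which is 0.519% of the loci at 2 FPKM. By contrast, 26 loci were higher in both lines with OE20 the highest, and 26 were lower in both lines with OE20 the lowest (0.142% each). These counts were not tested against each other.

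Among the 117 loci, the OE15/WT ratio ran from 1.59 to 121 with a median of 2.12. For 42 loci it was under 2, for 60 it was between 2 and 4, and for 15 it was 4 or more. The median ratio was 1.49 for OE20/WT and 1.40 for OE15/OE20. The limits alone forced every OE15/WT ratio to at least 1.5625. The ratio from WT to OE20 was the larger of the 2 steps in 82 loci, and the ratio from OE20 to OE15 was the larger in 35. Only 10 loci had an OE15/OE20 ratio over 2. These ratios carry the added 0.1 FPKM and so understate the differences of weakly expressed loci.

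**Figure D1:**
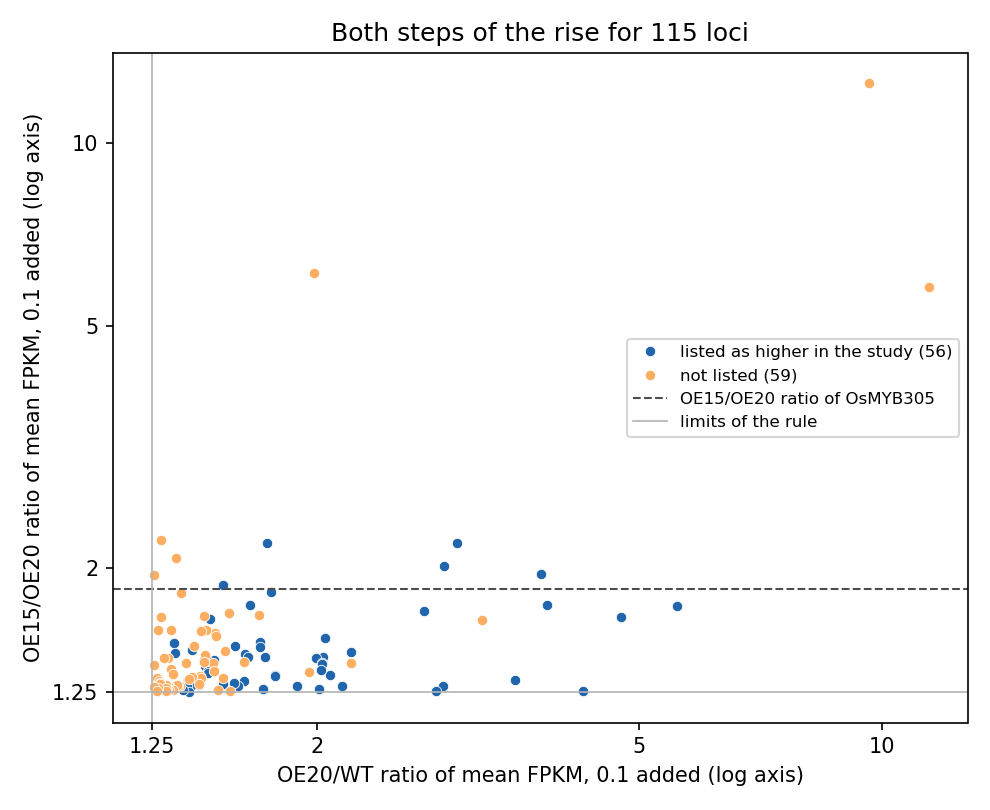
Each point is 1 of 115 loci, with the OE20/WT ratio of mean FPKM on the horizontal log axis and the OE15/OE20 ratio on the vertical log axis (0.1 FPKM added to each mean). The 2 loci listed at 0 in both WT libraries are not plotted. Blue points are the 56 loci in the study's list of higher genes and orange points 59 that are not, the solid lines are the limits used to choose the loci, and the dashed line is the OE15/OE20 ratio of OsMYB305, 1.85. Most points lie near both limits, and the 3 with an OE15/OE20 ratio above 5 are orange.

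Most of these loci were of moderate level. Their mean over the 6 libraries ran from 2.18 to 440 FPKM with a median of 8.55, against a median of 12.4 FPKM for all loci at or above 2 FPKM. A mean of 20 FPKM or more was found for 26 loci, 49 lay between 5 and 20 FPKM, and 42 were under 5 FPKM. Replicate libraries of the same genotype differed by a median factor of 1.06 in OE15, 1.08 in OE20 and 1.09 in WT for these loci, against 1.05 in each genotype for all loci at or above 2 FPKM. In 42 of the 117 loci at least 1 genotype had replicates that differed by more than 1.25-fold, the limit used for each step, and in 5 loci by more than 2-fold.

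A fit across all loci gave the following background. In limma, with calls made above 1.5-fold where the adjusted p was under 0.05, 2.9% of the 20627 loci tested were called higher in OE15 than in WT, and 116 of the 117 loci were among them. For OE20 against WT the background was 1.46%, and 48 of the 117 were called. For OE15 against OE20 it was 1.2%, and 29 were called. This last count was 18 without OE15 replicate 1 and 19 without OE15 replicate 2. Of the 117 loci, 48 were called in both lines against WT and 17 in all 3 contrasts. The share of all 20627 loci with such joint calls was not counted. Since the 117 loci were chosen on these contrasts, nothing is read from these counts. The 1 locus called in none of them was LOC_Os12g38420, with 5.39 and 6.65 FPKM in OE15, 4.25 and 2.99 FPKM in OE20, and 2.13 and 0.000171 FPKM in WT. Its WT replicates were the least alike of all 117 loci. It is named because of this result.

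Choosing loci on 1 library per genotype and looking at the other gave a view in libraries that had not been used for the choice. With only the replicate 1 libraries, 157 loci met the mean limit and both ratio limits. In the replicate 2 libraries, 126 of them (80.3%) had the order OE15 above OE20 above WT, against 21.6% of all 18278 loci at that level, and 66 (42.0%) again met both ratio limits. The reverse choice on replicate 2 gave 155 loci, of which 117 (75.5%) kept the order in the replicate 1 libraries, against 23.3% of 18367 loci, and 65 (41.9%) met both ratio limits. Each of these choices held 86 of the 117 loci. The share of all loci that met both ratio limits was not counted, so the 42.0% and 41.9% have no background. The limits were set with all 6 libraries known, and both libraries of a genotype come from the same line and may be technical repeats. These shares are therefore a description and no independent test of the order.

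How much of the OE15 difference was already present in OE20 varied between loci. For OsMYB305, the OE20 level above WT was 54.1% of the OE15 level above WT. For the 117 loci this share ran from 7.21% to 74.8% with a median of 46.5%, and 26 of them lay above the share of OsMYB305. It was under 25% for 8 loci, between 25% and 40% for 25, between 40% and 60% for 75, and 60% or more for 9. The limit on OE15/OE20 caps this share below 100%. For a locus of a given OE15/WT ratio, the limits on OE20/WT and OE15/OE20 bound the share from below and from above. These bounds lie closest together where the OE15/WT ratio is small. The grouping of shares near that of OsMYB305 is thus shaped in part by the limits, and the spread is a description only.

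**Figure D2:**
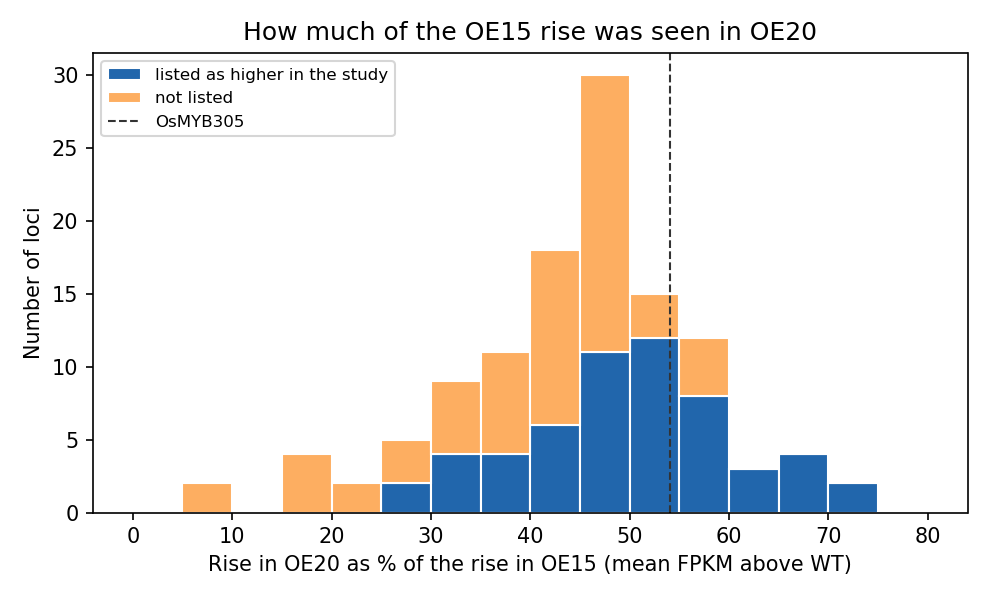
The number of loci (vertical axis) is plotted by the OE20 level above WT as a percentage of the OE15 level above WT (horizontal axis, from mean FPKM), in blue for loci in the study's list of higher genes and in orange for the rest. The dashed line marks OsMYB305 at 54.1%, and 75 of the 117 loci lie between 40% and 60%. The limits used to choose the loci narrow the range of this share, so nothing is read from its nearness to the line.

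The 3 loci with a share nearest to that of OsMYB305 had different annotations. LOC_Os11g17440, annotated as an enoyl-CoA hydratase/isomerase, an enzyme family of fatty acid oxidation, had 5.05 and 5.07 FPKM in OE15, 3.62 and 3.41 FPKM in OE20, and 1.45 and 1.90 FPKM in WT, a share of 54.3%. LOC_Os04g58810, annotated as a CAF1 ribonuclease, a type of enzyme that shortens the poly(A) tails of mRNAs, had 15.1 and 14.4 FPKM in OE15, 10.5 and 10.2 FPKM in OE20, and 5.16 and 5.13 FPKM in WT, a share of 54.2%. The share was 54.3% for LOC_Os01g49830, a B3 domain protein described with the transcription factors.

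Annotations for these loci come from the study's own list of changed genes, which was made from the same libraries and is therefore no independent evidence of direction. Of the 117 loci, 56 (47.9%) are in that list as higher, none is in it as lower, and 61 are not in it and are known here by locus name only. The 56 are 27.7% of the 202 loci listed as higher with a mean of at least 2 FPKM, and the counts of listed loci by class below are also of loci at that level. Of all 205 loci listed as lower at that level, 42 had the mirrored order. The counts by class were not tested against these totals. For 11 of the 56 the annotation is only "expressed protein", 28 fall in the gene classes described below, and 17 are described but fall in none. The listed loci had a median OE15/WT ratio of 2.45, an OE20/WT ratio of 1.71 and a mean level of 14.8 FPKM. The unlisted loci had medians of 1.96, 1.38 and 4.68 FPKM for the same quantities.

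Transcription factors, which set the transcription of other genes, were 5 of the stepwise loci, out of 22 that the list gives as higher. LOC_Os03g60570 (ZOS3-22, a C2H2 zinc finger protein) had 7.14 and 6.91 FPKM in OE15, 6.25 and 4.92 FPKM in OE20, and 1.65 and 2.2002 FPKM in WT. Its OE15/WT ratio of 3.52 was the largest of the class, most of the difference was present in OE20 (71.8%), and its OE20 libraries were further apart than the OE15 ones. LOC_Os05g25770 is annotated as WRKY45, which in rice is known as a regulator of salicylic acid-dependent defence. It had 18.5 and 19.4 FPKM in OE15, 13.2 and 14.3 FPKM in OE20, and 8.90 and 9.91 FPKM in WT.

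LOC_Os01g49830, a protein with the plant-specific B3 DNA-binding domain, had 30.5 and 29.3 FPKM in OE15, 23.6 and 22.6 FPKM in OE20, and 14.4 and 15.7 FPKM in WT. LOC_Os01g41900, annotated as another Myb transcription factor, had 81.4 and 84.0 FPKM in OE15, 63.3 and 66.1 FPKM in OE20, and 45.8 and 47.7 FPKM in WT. LOC_Os04g57340, with the AP2 domain found in ethylene-responsive and related factors, had 81.9 and 90.0 FPKM in OE15, 72.4 and 64.1 FPKM in OE20, and 48.1 and 51.8 FPKM in WT. These last 3 had OE15/WT ratios between 1.72 and 1.98, below the median of the 117 loci. The mirrored order was found for none of the 2 transcription factors listed as lower.

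Ethylene synthesis was represented by 2 of the 3 loci listed as higher. Both are annotated as 1-aminocyclopropane-1-carboxylate (ACC) oxidase, the enzyme of the last step to ethylene. LOC_Os05g05680 had 48.6 and 46.0 FPKM in OE15, 34.6 and 36.1 FPKM in OE20, and 16.5 and 17.5 FPKM in WT. LOC_Os05g05670 had 16.9 and 18.6 FPKM in OE15, 13.8 and 14.3 FPKM in OE20, and 7.64 and 8.62 FPKM in WT. OE20 showed 60.7% and 61.3% of the OE15 difference for LOC_Os05g05680 and LOC_Os05g05670. They are next to each other in the order of locus names on chromosome 5. How reads that match several loci were assigned is not stated, so reads may be shared between these similar genes and their agreement cannot be taken as that of separate measurements.

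Calcium sensors bind calcium ions through EF hands and pass the signal to other proteins. In this class 3 of 6 loci listed as higher were stepwise. LOC_Os05g31620 (OsCML15, a calmodulin-like protein) had 24.5 and 21.0 FPKM in OE15, 15.7 and 17.7 FPKM in OE20, and 7.31 and 9.12 FPKM in WT. LOC_Os06g46950, an EF hand protein, had 60.3 and 58.3 FPKM in OE15, 41.2 and 37.1 FPKM in OE20, and 24.4 and 21.6 FPKM in WT. LOC_Os01g72530 (OsCML31) had 20.9 and 20.1 FPKM in OE15, 15.2 and 15.5 FPKM in OE20, and 7.81 and 9.39 FPKM in WT. The OE15/WT ratios of the 3 lay close together, between 2.37 and 2.75.

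Rapid alkalinization factor (RALF) peptides are secreted signals that act through receptor kinases at the cell surface and are known to alter extracellular pH and cell growth. Both RALF loci listed as higher were stepwise. LOC_Os10g41980 (RALFL26) had 633.8 and 674.5 FPKM in OE15, 408.9 and 384.5 FPKM in OE20, and 275.3 and 262.3 FPKM in WT. It had the highest level of the 117 loci, and its mean was 654 ± 28.8 FPKM in OE15, 397 ± 17.2 FPKM in OE20 and 269 ± 9.21 FPKM in WT (SD, n = 2 each). LOC_Os06g29730 (RALFL28) had 42.8 and 40.6 FPKM in OE15, 18.9 and 18.9 FPKM in OE20, and 5.01 and 7.51 FPKM in WT. Its OE15/WT ratio was 6.57 and its OE15/OE20 ratio 2.201, above the 1.85 of OsMYB305. OE20 showed 33.2% of the OE15 difference for RALFL26 and 35.6% for RALFL28.

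A single receptor-like kinase locus was stepwise, of 7 listed as higher. LOC_Os09g29540 (OsWAK82, a cytoplasmic kinase of the wall-associated kinase family) had 4.55 and 4.14 FPKM in OE15, 3.12 and 3.62 FPKM in OE20, and 1.77 and 1.70 FPKM in WT.

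Defence and wounding contributed 3 of 14 loci listed as higher, while 4 of 11 listed as lower had the mirrored order. LOC_Os03g04060 (CHIT16, a chitinase, an enzyme that breaks down chitin of fungal walls) had 20.6 and 21.3 FPKM in OE15, 10.8 and 11.4 FPKM in OE20, and 7.53 and 6.94 FPKM in WT. LOC_Os11g37960 (WIP4, a wound-induced protein) had 129.5 and 135.0 FPKM in OE15, 93.7 and 88.9 FPKM in OE20, and 69.3 and 67.1 FPKM in WT. In both, the larger step was that between OE20 and OE15. LOC_Os11g37880, annotated as Yr10, after a wheat stripe rust resistance protein, had 4.01 and 3.75 FPKM in OE15, 2.85 and 2.55 FPKM in OE20, and 1.69 and 1.95 FPKM in WT. This class therefore held loci of both orders.

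Of 7 RING and other zinc finger loci listed as higher, 2 were stepwise, and 2 of 4 listed as lower had the mirrored order. LOC_Os09g21710, an AN1-like zinc finger protein of a family known for stress responses in rice, had 26.5 and 24.3 FPKM in OE15, 16.8 and 17.4 FPKM in OE20, and 9.71 and 10.3 FPKM in WT. LOC_Os02g33720, a RING-H2 protein of the type that acts in ubiquitin transfer, had 25.4 and 24.6 FPKM in OE15, 15.2 and 19.7 FPKM in OE20, and 9.70 and 10.5 FPKM in WT. The OE20 libraries of LOC_Os02g33720 were further apart than those of LOC_Os09g21710.

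Oxidoreductases, which include enzymes of secondary metabolism, held 5 stepwise loci of 15 listed as higher, and 2 with the mirrored order of 23 listed as lower. LOC_Os04g33240 is annotated as tasselseed-2, after the maize short-chain dehydrogenase of sex determination, and had 13.0 and 13.5 FPKM in OE15, 6.87 and 6.19 FPKM in OE20, and 1.88 and 2.53 FPKM in WT. LOC_Os04g22380, a short chain dehydrogenase/reductase, had 4.13 and 3.67 FPKM in OE15, 3.10 and 2.81 FPKM in OE20, and 0.604 and 0.932 FPKM in WT. The OE15/WT ratio was 5.79 for LOC_Os04g33240 and 4.61 for LOC_Os04g22380, but OE20 showed 39.2% of the difference in LOC_Os04g33240 and 69.8% in LOC_Os04g22380. LOC_Os04g49194 is annotated as a naringenin, 2-oxoglutarate 3-dioxygenase, an enzyme of the flavonoid pathway. It had 5.24 and 4.64 FPKM in OE15, 3.59 and 2.79 FPKM in OE20, and 1.40 and 1.62 FPKM in WT. LOC_Os02g36070, a cytochrome P450 monooxygenase, had 4.25 and 4.41 FPKM in OE15, 3.37 and 3.43 FPKM in OE20, and 1.68 and 1.61 FPKM in WT. LOC_Os07g34570, an FAD-dependent oxidoreductase, had 9.01 and 9.58 FPKM in OE15, 7.28 and 7.00 FPKM in OE20, and 5.23 and 4.66 FPKM in WT. Its OE15/WT ratio of 1.86 was the smallest of this class.

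Carbohydrate-active enzymes, transporters and auxin and cytokinin genes had 1 stepwise locus each, of 10, 8 and 3 listed as higher. The mirrored order was found for 2 of 9 carbohydrate-active enzymes, 1 of 6 transporters and not for the 1 auxin or cytokinin gene listed as lower. LOC_Os01g08440, a UDP-glucosyl transferase, which attaches sugars to small molecules, had 28.4 and 29.5 FPKM in OE15, 21.4 and 22.8 FPKM in OE20, and 15.5 and 16.3 FPKM in WT. LOC_Os04g47930, annotated as an aluminum-activated malate transporter, a family of anion channels, had 41.7 and 42.1 FPKM in OE15, 29.5 and 32.3 FPKM in OE20, and 19.8 and 22.2 FPKM in WT. LOC_Os02g52990 (OsSAUR12, an auxin-responsive gene) had 22.7 and 19.7 FPKM in OE15, 15.1 and 14.8 FPKM in OE20, and 8.58 and 11.4 FPKM in WT. The OE15/WT ratios of these loci were near 2, at 1.81, 1.99 and 2.11 in the order given.

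Of 5 transposon-related loci listed as higher, 2 were stepwise, and 1 of 3 listed as lower had the mirrored order. LOC_Os09g25690 (unclassified) had 23.8 and 25.9 FPKM in OE15, 19.1 and 16.5 FPKM in OE20, and 8.26 and 9.18 FPKM in WT. LOC_Os11g17480 (Ty1-copia) had 20.005 and 21.8 FPKM in OE15, 14.7 and 14.5 FPKM in OE20, and 8.67 and 9.00 FPKM in WT. Retrotransposons occur in many similar copies, and how reads matching several copies were counted is not stated.

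**Figure D3:**
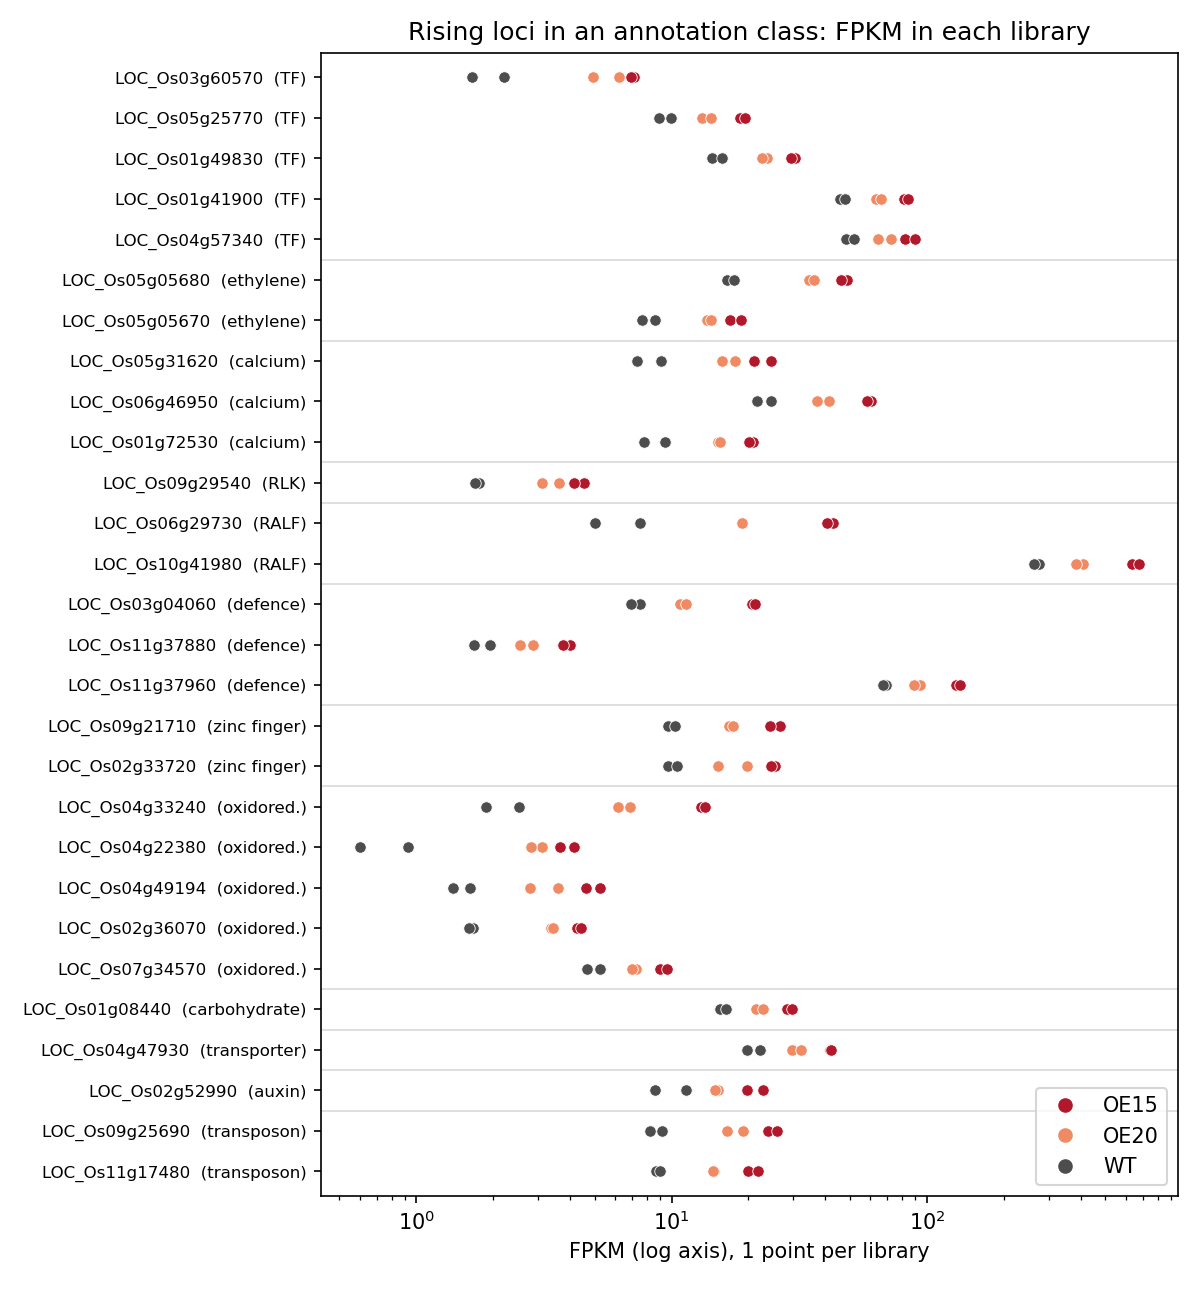
FPKM on a log axis in each of the 6 libraries (1 point per library, OE15 dark red, OE20 orange, WT grey) for the 28 stepwise loci in a gene class, with the class in parentheses. In every row the OE15 points lie to the right of the OE20 points and these to the right of the WT points, as the choice of loci requires, and the distance from WT to OE15 is widest for RALFL28 (LOC_Os06g29730), the tasselseed-2 annotation (LOC_Os04g33240) and LOC_Os04g22380.

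Some described loci outside these classes had large differences, and they are named because of their values. LOC_Os01g35330 is annotated as a circumsporozoite protein precursor, a name taken from a malaria parasite protein that says little about its role in rice. It had 93.5 and 94.7 FPKM in OE15, 59.0 and 54.3 FPKM in OE20, and 11.9 and 11.8 FPKM in WT, an OE15/WT ratio of 7.90. LOC_Os10g36170 (LTPL160, of the lipid transfer and protease inhibitor family) had 20.8 and 18.1 FPKM in OE15, 9.44 and 10.4 FPKM in OE20, and 1.84 and 3.25 FPKM in WT, an OE15/WT ratio of 7.39. Both rank above every locus of the gene classes in that ratio. LOC_Os06g14420, a NUDIX family hydrolase, had 50.4 and 50.5 FPKM in OE15, 21.4 and 24.4 FPKM in OE20, and 11.8 and 14.5 FPKM in WT, and at 26.1% it had the smallest share of the OE15 difference in OE20 among the listed loci. LOC_Os06g36880, a cysteine synthase, the enzyme that joins sulfide to O-acetylserine, had 3.68 and 3.35 FPKM in OE15, 3.16 and 2.28 FPKM in OE20, and 0.951 and 0.817 FPKM in WT. LOC_Os08g37210, annotated as patatin, a family of lipid acyl hydrolases, had 43.9 and 40.6 FPKM in OE15, 24.9 and 23.5 FPKM in OE20, and 14.4 and 14.9 FPKM in WT.

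With 0.1 FPKM added to each mean, the 5 loci with the largest OE15/WT ratio carry no annotation in the study's list and were at or near 0 in WT. With 1 FPKM added, LOC_Os02g53240 and LOC_Os01g15520 gave way to the listed loci LOC_Os01g35330 and LOC_Os07g01904. LOC_Os12g32390 had 40.3 and 39.2 FPKM in OE15, 3.35 and 2.81 FPKM in OE20, and 0 and 0.461 FPKM in WT. Its OE15/OE20 ratio of 12.5 was the largest of all 117 loci and its share in OE20, 7.21%, the smallest. LOC_Os10g33430 had 12.2 and 10.7 FPKM in OE15, 2.04 and 8.42 FPKM in OE20, and was listed at 0 in both WT libraries. The OE20 libraries of this locus were further apart than its OE20 and OE15 means. LOC_Os12g24050 had 6.67 and 6.71 FPKM in OE15, 1.12 and 1.03 FPKM in OE20, and 0 and 0.00523 FPKM in WT.

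LOC_Os02g53240 had 5.97 and 6.29 FPKM in OE15, 1.88 and 0.796 FPKM in OE20, and was listed at 0 in both WT libraries. LOC_Os01g15520 had 5.72 and 6.48 FPKM in OE15, 0.803 and 1.03 FPKM in OE20, and 0.306 and 0.517 FPKM in WT. In LOC_Os01g15520, OE20 was much nearer to WT than to OE15, with a share of 8.85%. Across the 117 loci, 4 were listed at 0 in at least 1 WT library and 2 of these in both. A value of 0 in FPKM need not mean the absence of reads, so for the 2 loci at 0 in both WT libraries the place in this ranking rests on the 0.1 FPKM added and no ratio to WT is given.

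**Figure D4:**
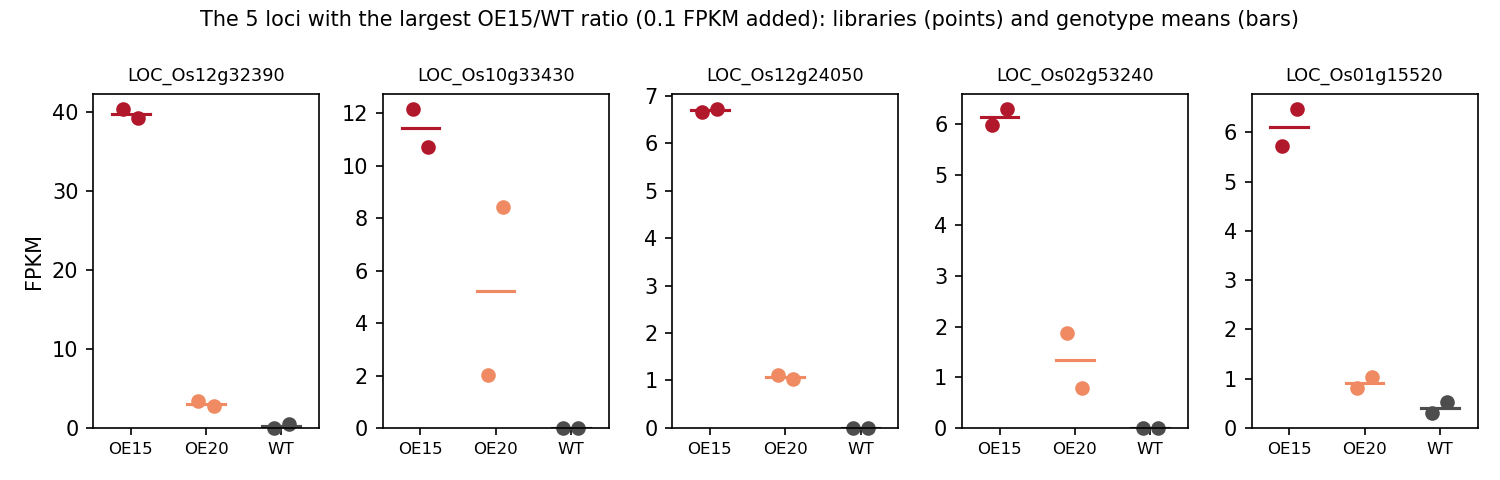
FPKM (vertical axis, 1 scale per panel, each starting at 0) in the libraries of OE15, OE20 and WT for the 5 loci with the largest OE15/WT ratio (0.1 FPKM added). Points are single libraries and bars are genotype means. OE15 replicates lie close together in each panel, whereas the OE20 libraries of LOC_Os10g33430 are at 2.04 and 8.42 FPKM.

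At the other end of the scale were loci with high levels in every genotype. After RALFL26, the highest OE15 means belonged to LOC_Os06g04230, LOC_Os01g28790, WIP4 and LOC_Os04g58850. LOC_Os06g04230 had 206.2 and 206.9 FPKM in OE15, 92.6 and 92.9 FPKM in OE20, and 73.4 and 71.1 FPKM in WT. LOC_Os01g28790, annotated as a PRAS-rich protein, had 156.4 and 156.8 FPKM in OE15, 105.6 and 104.6 FPKM in OE20, and 67.1 and 65.4 FPKM in WT. LOC_Os04g58850 had 109.8 and 115.0 FPKM in OE15, 90.7 and 85.8 FPKM in OE20, and 73.2 and 67.1 FPKM in WT. In LOC_Os06g04230 the OE20 level was close to WT, with a share of 15.3%, whereas LOC_Os01g28790 and LOC_Os04g58850 had shares of 43.0% and 43.0%.

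The limits cut through a continuous range of values. Just inside the limit on the mean was LOC_Os10g37570 at 2.18 FPKM, and just outside was LOC_Os09g25060, annotated as WRKY76, at 1.99 FPKM. WRKY76 had 3.26 and 3.32 FPKM in OE15, 1.89 and 1.79 FPKM in OE20, and 0.854 and 0.818 FPKM in WT. For OE20/WT, LOC_Os03g55540 was just inside at 1.2567 and LOC_Os08g31580 just outside at 1.2467. For OE15/OE20, LOC_Os05g44900 was just inside at 1.2503 and LOC_Os06g03580 just outside at 1.2494.

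Locus IDs given by the study allowed 17 other genes of nitrate uptake and assimilation, cell wall synthesis or MYB regulation to be looked up, and none of these was among the 117 loci. The closest in OE15/OE20 ratio was OsMYB48 (LOC_Os01g74410), a MYB factor that the paper calls a positive regulator of secondary wall synthesis. It had 381.0 and 358.7 FPKM in OE15, 282.1 and 317.0 FPKM in OE20, and 196.1 and 245.1 FPKM in WT. Its OE15/OE20 ratio of 1.23 was just under the limit. By RT-qPCR the paper reports OsMYB48 as lower in overexpressing roots, the opposite direction to these values. OsNRT2.1 (LOC_Os02g02170), a high-affinity nitrate transporter, had 9.90 and 9.20 FPKM in OE15, 8.10 and 7.75 FPKM in OE20, and 5.81 and 6.07 FPKM in WT. OsNRT2.1 and its relative OsNRT2.2 (LOC_Os02g02190) had the same order of genotypes as the stepwise loci, but their OE15/OE20 ratios of 1.202 and 1.18 were under the limit. OsNAR2.1 (LOC_Os02g38230), their partner protein, had 125.9 and 123.0 FPKM in OE15, 126.9 and 125.1 FPKM in OE20, and 86.1 and 91.4 FPKM in WT, with no step between the lines. For OsNIR2 (LOC_Os01g25484), a nitrite reductase, the means were 874 FPKM in OE15, 839 FPKM in OE20 and 855 FPKM in WT. Its WT libraries, at 791 and 918 FPKM, lay on both sides of all values of the lines. By RT-qPCR the paper reports OsNIR2 as higher in overexpressing roots under low N. Among the cell wall genes the study names, OsCSLF8, OsCSLE6 and OsBC1 met the limits of the mirrored order.

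The stepwise loci lay on all 12 chromosomes. Chromosome 1 held 19 of them and chromosome 4 held 18. As a share of the loci at 2 FPKM on the same chromosome, chromosome 4 had 1.16%, chromosome 11 had 1.07% and chromosome 7 had the least, 0.360%. In the order of locus names, 8 of the 117 (6.84%) had another stepwise locus within 5 listed loci, and 476 of the 18183 other loci at 2 FPKM (2.62%) had one within that distance. Of the 95 loci with the mirrored order, 22 (23.2%) had another of their own kind within 5 listed loci. Position was not used to choose the loci, and these shares were not tested.

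Directly adjacent pairs were the ACC oxidases LOC_Os05g05670 and LOC_Os05g05680, and LOC_Os04g30240 and LOC_Os04g30250. LOC_Os04g30240 had 3.08 and 3.01 FPKM in OE15, 2.07 and 2.15 FPKM in OE20, and 1.66 and 1.51 FPKM in WT. LOC_Os04g30250 had 3.07 and 3.58 FPKM in OE15, 2.88 and 2.23 FPKM in OE20, and 1.81 and 1.71 FPKM in WT. Both loci of the second pair are unlisted and of similar level, and whether they overlap or share sequence was not examined. Further apart, WIP4 and the Yr10 annotation on chromosome 11 were 9 listed loci from each other, LOC_Os11g17440 and the retrotransposon LOC_Os11g17480 were 3 apart, and the CAF1 ribonuclease LOC_Os04g58810 and LOC_Os04g58850 were 4 apart.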

How the data were processed

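RNA-seq was available as 6 tables, 1 per library. The values deposited by the authors are FPKM, fragments scaled by transcript length and mapped fragments; the submitters' processing notes name FastQC 0.11.8, Trimmomatic 0.38, HISAT2 2.1.0 and Cufflinks 2.2.1. The genome build, annotation, strand setting and treatment of reads matching several loci are not given in the sources used here, so values of near-identical, overlapping or antisense loci are uncertain. Nothing states that the 2 libraries of a genotype came from separate cultures, so their spread may be technical.

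The 4 locus names with repeated entries were dropped. Ratios are of genotype means with 0.1 FPKM added. limma 3.58.1 (R 4.3.3) was fitted on log2(FPKM + 0.1), with trended empirical Bayes moderation, over the 20627 loci averaging 1 FPKM or more and all 3 genotypes, with Benjamini-Hochberg adjustment. Relative depth was read from the smallest values of 961 loci. Loci were named by rule: members of each gene class (up to 5), the 5 largest OE15/WT ratios, the 5 highest OE15 means, those nearest each limit, adjacent pairs, and the 3 shares nearest OsMYB305. Classes were found by words in the study's annotations. The members, lists and limits were chosen with earlier results of these data known. No sequence or coordinate is printed, since the reference used here does not pair these locus names with either.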

Additional observations from a re-analysis of the deposited data

How the results depend on the processing

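The number of stepwise loci, 117, depended on the limits: it was 75 with a minimum mean of 5 FPKM, 551 with both ratio limits at 1.1 and 22 with both at 1.5. It stayed within 1.5 times, between 88 and 157, with another number added to the means, a minimum of 1 FPKM, quantile or median-ratio scaling, the ratios alone, or the replicate 1 or replicate 2 libraries alone (these last 2 settings were chosen after seeing the data). Leaving out 1 library gave 113 to 164 loci. With a minimum mean of 5 FPKM in limma, 328 loci were called higher in OE15 than in WT, 75 of them stepwise, 168 in OE20 than in WT, and 139 in OE15 than in OE20. Leaving out 1 library gave 437 to 649 loci for OE15 against WT (104 to 116 stepwise), 203 to 320 for OE20 against WT (42 to 52 stepwise) and 137 to 250 for OE15 against OE20 (18 to 28 stepwise). The lowest counts for OE15 against OE20 came without OE15 replicate 1 (149 loci, 18 stepwise) and without OE15 replicate 2 (137 loci, 19 stepwise). Within 10 listed loci 16 stepwise loci had another, and within 2 listed loci 4. With the replicate block, 584 loci (116 stepwise) were called for OE15 against WT, 297 (50 stepwise) for OE20 against WT and 244 (27 stepwise) between the lines; deviations of same-numbered libraries correlated at 0.0226, 0.0314 and -0.0685, so the numbers were not taken to pair the libraries. Of 258 alternative values of the ratios of named loci, 205 moved by less than 1 SD, 53 by more and 0 reversed. Depth limits the loci near 0 in WT, whose ratios rest on the number added.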
